A study of Mus musculus with 14 samples.

Results

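The 10 genes described here, of matrix crosslinking, elastic fibres and matricellular signalling, were followed in mouse hearts that had lost Fam210a in cardiomyocytes. They are the 5 lysyl oxidases Lox, Loxl1, Loxl2, Loxl3 and Loxl4, the fibre proteins elastin (Eln) and fibronectin (Fn1), and the matricellular genes Postn, Spp1 and Tnc. These 10 genes were taken by symbol from the 53735 symbols of 2 count tables, and all 10 passed the filter on low counts in both. Poly-A selected RNA of whole hearts from male C57BL/6 mice was sequenced. The early hearts, about 5 weeks after tamoxifen, comprise 4 knockouts and 4 controls, and the late hearts, at about 10 weeks, comprise 3 of each. Every animal carried alphaMHCMCM/+, a Cre recombinase that tamoxifen switches on, driven by the cardiomyocyte promoter of Myh6. Knockouts (cKO) also carried Fam210afl/fl, so the deletion concerns cardiomyocytes while the RNA comes from all cells of the heart. Controls carried the Cre and no floxed alleles. The series describes cardiac function as normal at the early time and strongly impaired at the late time.

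Depth per heart was 15657298 to 19466469 counts early and 29989076 to 35750964 late. Levels are given as CPM, the counts scaled to library size. Fam210a had 135 to 158 CPM in early cKO hearts against 165 to 177 in controls, and 64.6 to 70.7 against 120 to 134 late. Its log2 fold change was -0.22 early, which did not pass the test (adjusted p = 0.17, edgeR), and -0.94 late (adjusted p = 6.5e-05). The labels of early cKO replicate 4 conflict: title and description name a knockout, the genotype field a control. Its Fam210a level was 150 CPM. Of the atrial genes, Bmp10 reached 164 CPM in early cKO replicate 2 and 104 in late control replicate 3, and at most 0.754 in any other heart. Leaving out either of these 2 hearts changed no call of the 10 genes. The sum of the 6 atrial markers was also the highest of its group in these 2 hearts. It was 1556 CPM in early cKO replicate 2, against 63.1 to 237 in the other early cKO hearts. In late control replicate 3 it was 1000 CPM, against 142 and 207 in the other late controls. Late cKO hearts had sums of 1762 to 2977 CPM, of which Nppa alone made 1733 to 2621. There the atrial genes did not all go with Bmp10: Myl7 ran from 0.0852 to 78.8 CPM and Myl4 from 15.5 to 168.5. Late controls had 15.9 to 111 CPM of Myl7. How much atrial tissue each heart held was not tested. The 9 cardiomyocyte markers were abundant in every heart. Their sum was 60590 to 65200 CPM in early cKO hearts and 67730 to 75610 in early controls, without overlap, and 62470 to 74290 against 70180 to 80640 late. None of them passed the early test, and late 4 fell and 1 rose, against 33.2% and 31.8% of all tested genes. Their part in the changes of the 10 genes was not tested. Early and late hearts were deposited in separate tables, and an effect of time cannot be told apart from one of the table, so levels were compared only within each table.

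Lysyl oxidases are secreted copper enzymes that oxidise lysine side chains of collagen and elastin, and the aldehydes they form join neighbouring molecules into covalent crosslinks. Elastin gives vessel walls and the heart their recoil, and fibronectin forms a fibrillar network that cells grip through integrins. Matricellular proteins such as periostin, osteopontin and tenascin C sit in the matrix and signal to cells more than they bear load. In the adult heart these genes are known mainly from fibroblasts, vascular cells and macrophages, and several are known to rise after injury or overload.

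In the late hearts, 6 of the 10 genes rose (Lox, Loxl1, Loxl3, Loxl4, Eln and Postn), 1 fell (Fn1) and 3 did not pass the test (Loxl2, Spp1 and Tnc). The sizes ran from 1.49-fold for Loxl1 to 21.1-fold for Lox. Late changes were widespread: 31.8% of the 14942 tested genes rose and 33.2% fell at an adjusted p under 0.05 (edgeR, adjusted over all tested genes). The cKO and control hearts did not overlap in 7 of the 10 genes, the same 7 that passed, and in 69.8% of all tested genes. The median log2 fold change was 0.84 over the 10 genes and -0.02 over all genes. In all, 7 of the 10 genes were called, in a table where most genes were called. By size, Lox had a larger log2 fold change than all but 138 of the 14942 genes, and Loxl4 than all but 210. Eln was exceeded by 482 genes and Postn by 689.

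In the early hearts none of the 10 genes passed the test, where 0.613% of 13529 tested genes were called in either direction. At an unadjusted p under 0.05 there was 1, Spp1, and DESeq2 also called 0, giving no adjusted p for Spp1. Early calls over all genes, 70 higher and 13 lower, were 115 and 66 without early cKO replicate 4. No gene of the 10 separated the groups, against 5.67% of all tested genes. The change late minus the change early, tested as 1 contrast over all 14 hearts, was higher for 5 genes (Lox, Loxl3, Loxl4, Eln and Postn) and lower for Fn1. Over all 14555 genes tested this way, 29.8% were higher and 31.3% lower.

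**Figure D1:**
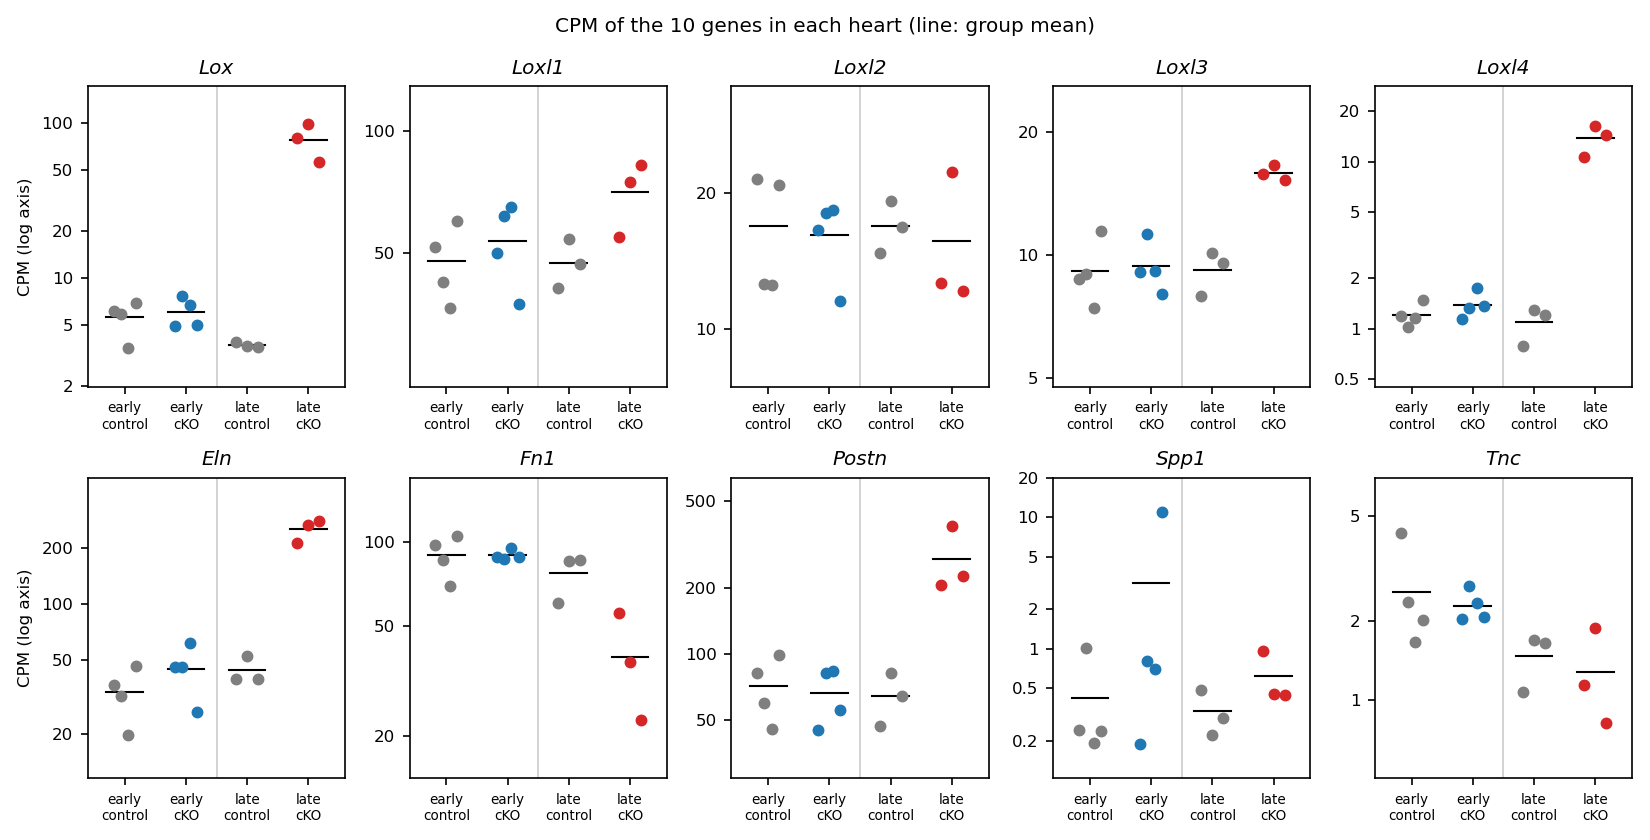
CPM of each gene (vertical log axis, a separate scale for each panel) in every heart, with points for hearts in replicate order and a line for the group mean; the grey vertical line parts the early and late tables. Late cKO hearts lie above late controls for Lox, Loxl1, Loxl3, Loxl4, Eln and Postn and below them for Fn1, and a single early cKO heart stands at 10.9 CPM for Spp1.

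Lox encodes the founding member of the family and the enzyme best known for crosslinking fibrillar collagen. It lies on the minus strand of chromosome 18 at 52516067 to 52529867 (GRCm38, as are all positions here). Late cKO replicates 1 to 3 had 79.9, 97.9 and 56.4 CPM, and the late controls 3.87, 3.64 and 3.57. The lowest knockout heart was thus far above the highest control, and the controls lay close together. Means were 78.1 ± 20.8 against 3.70 ± 0.159 CPM (SD, n = 3 each), a log2 fold change of 4.40 (SE 0.22, adjusted p = 7.23e-07, edgeR). Early hearts had 4.88, 7.68, 6.72 and 4.96 CPM in the knockouts and 6.16, 5.86, 3.52 and 6.87 in the controls, in replicate order. These ranges overlapped, with a log2 fold change of 0.12 (SE 0.20, adjusted p = 0.903, edgeR). The difference between the late and early change was 4.30 on the log2 scale (adjusted p = 1.64e-08, edgeR).

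Loxl4, a family member with scavenger receptor domains beside the catalytic domain, lies on the minus strand of chromosome 19 at 42593982 to 42612813. It was nearly silent in controls. Late controls had 0.781, 1.29 and 1.20 CPM, from 24, 41 and 40 counts, and late cKO hearts had 10.7, 16.3 and 14.5 CPM. The groups were again far apart, at 13.8 ± 2.83 against 1.09 ± 0.271 CPM (SD, n = 3 each). This was a log2 fold change of 3.66 (SE 0.24, adjusted p = 3.39e-06, edgeR). All early hearts lay between 1.02 and 1.74 CPM, with overlapping groups. The late change exceeded the early one by 3.47 (adjusted p = 1.84e-07, edgeR).

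Loxl3, another member with scavenger receptor domains, lies on the plus strand of chromosome 6 at 83034173 to 83052562. Late cKO hearts had 15.7, 16.6 and 15.2 CPM and controls 7.94, 10.1 and 9.56. All knockout hearts were higher, with a small spread among them. The log2 fold change was 0.78 (SE 0.13, adjusted p = 0.000795, edgeR), and it exceeded the early one, 0.03, by 0.77 (adjusted p = 0.00291). Its exons share 535 bases, or 11.6% of their length, with Htra2 on the opposite strand, and the library kit does not mark strand. Htra2 itself changed by -0.15 on the log2 scale and did not pass (adjusted p = 0.456). Genes on the opposite strand also share 30 to 301 exon bases with Lox, Loxl2, Eln, Fn1 and Tnc, and Loxl1, Loxl4 and Postn overlap no other gene.

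Loxl1, the member known for elastic fibre upkeep, lies on the minus strand of chromosome 9 at 58287738 to 58313186. It had 54.7, 75.0 and 82.5 CPM in late cKO hearts and 40.9, 54.1 and 46.9 in controls. The groups barely separated, since the lowest knockout lay just above the highest control. The log2 fold change was 0.58 (SE 0.17, adjusted p = 0.0149, edgeR). Without late control replicate 1 it was 0.50 and no longer passed (adjusted p = 0.0557). Its late change was not shown to differ from its early one, 0.17 (difference 0.43, adjusted p = 0.184), although without the filter on low counts that difference passed (adjusted p = 0.0363).

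Loxl2, known for collagen type IV crosslinking, lies on the plus strand of chromosome 14 at 69609068 to 69695834. Late cKO hearts had 12.7, 22.3 and 12.1 CPM and controls 14.7, 19.2 and 16.8. Replicates 1 and 3 of the knockouts were below every control, and replicate 2 was above all of them. The log2 fold change was -0.11 (SE 0.23, adjusted p = 0.705, edgeR). Without late cKO replicate 2 it was -0.44 and passed (adjusted p = 0.0467), so the call for Loxl2 rests on that heart.

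The makeup of the lysyl oxidase family differed between the late groups. Levels of different genes were set side by side as CPM per kilobase of exon, with all annotated exons of a gene joined. The transcripts present in these hearts may be shorter, so shares and orders between genes depend on this length. On that scale, Loxl1 held 69.9 ± 0.647% of the family total in late controls and Lox 3.83 ± 0.645% (SD, n = 3). In late cKO hearts Loxl1 held 45.3 ± 8.10% and Lox 34.4 ± 7.65%. The share of Lox was 40.2% at most and 25.8% at least in these 3 hearts, and at most 4.54% in any late control. Loxl4 held 6.90 ± 0.704% against 1.25 ± 0.187%. The share of Loxl2 was 6.01 ± 1.35% against 15.3 ± 0.0322%, while its own level, as given above, did not pass the test. The family total was 41.6, 54.8 and 45.8 CPM per kilobase in late cKO hearts and 17.9, 23.2 and 20.4 in controls, without overlap. In early hearts the share of Lox was 5.58 ± 0.715% in cKO and 5.55 ± 0.817% in control hearts (SD, n = 4 each). These shares are a description and were not tested.

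**Figure D2:**
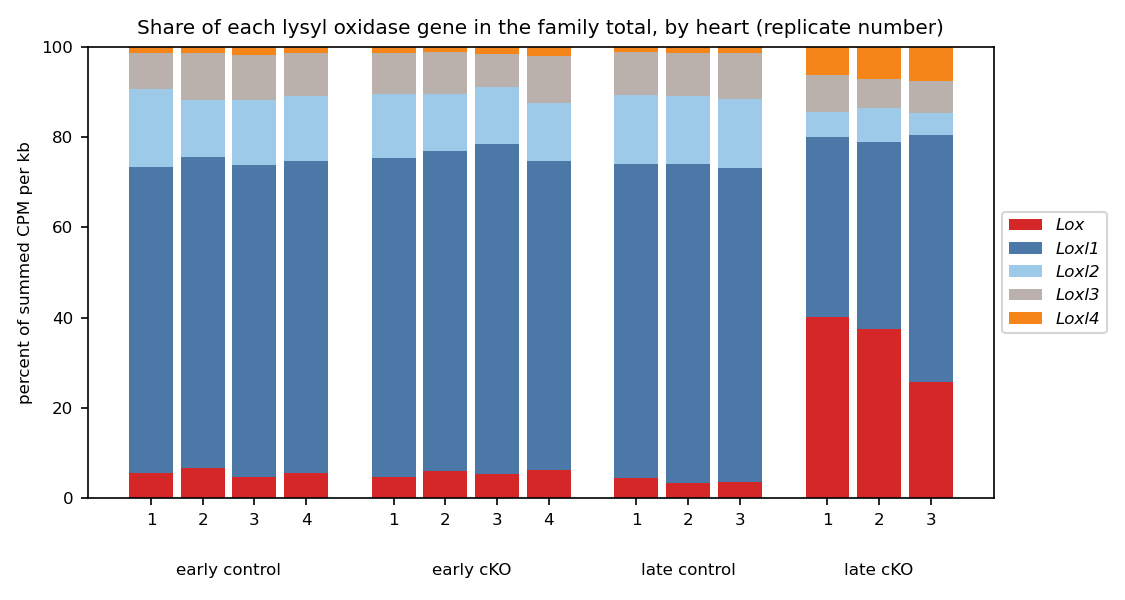
Percent of the summed CPM per kilobase of the 5 lysyl oxidase genes held by each of them (vertical axis, stacked bars), 1 bar per heart with its replicate number. The 11 bars of early hearts and late controls look alike, with Loxl1 at 67.8% or more, and the 3 late cKO bars show Lox at 25.8 to 40.2%.

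Eln encodes tropoelastin, the soluble precursor that lysyl oxidases crosslink into elastin, and lies on the minus strand of chromosome 5 at 134702593 to 134747323. Late cKO hearts had 214, 266 and 280 CPM and controls 39.9, 52.6 and 39.9. The knockout hearts were all several times higher, at 253 ± 34.7 against 44.1 ± 7.31 CPM (SD, n = 3 each). Eln thus rose 5.74-fold (log2 fold change 2.52, SE 0.16, adjusted p = 2.89e-06, edgeR). In early hearts it had 45.8, 46.3, 62.2 and 26.4 CPM in knockouts and 36.9, 32.0, 19.9 and 46.8 in controls. Here the groups overlapped: the highest value was a knockout, and the lowest knockout, the replicate 4 with conflicting labels, lay below 3 of the 4 controls. The early log2 fold change was 0.41 (SE 0.25, adjusted p = 0.611) and the late one exceeded it by 2.13 (adjusted p = 0.000107, edgeR).

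Fn1, on the minus strand of chromosome 1 at 71585520 to 71653200, moved the other way. Late cKO hearts had 55.6, 37.0 and 22.9 CPM and controls 60.4, 85.5 and 86.5. All knockout hearts were lower, but the highest of them lay close to the lowest control and their spread was wide. The log2 fold change was -1.01 (SE 0.29, adjusted p = 0.012, edgeR). It was -0.73 without late cKO replicate 3 and -1.36 without late cKO replicate 1, and passed in both. Early hearts had 87.4 to 95.9 CPM in knockouts and 69.7 to 105.9 in controls, with a log2 fold change of 0.00 (SE 0.10). The late change was lower than the early one by -0.99 (adjusted p = 0.00996, edgeR).

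The opposite directions of Eln and Fn1 changed their proportion. Per kilobase of exon, Eln stood at 0.953, 0.887 and 0.666 times Fn1 in late controls and at 5.55, 10.4 and 17.7 times in late cKO hearts. The order of levels, which like these ratios depends on the exon length used, changed as well. In late controls it ran Loxl1 (mean 14.4 CPM per kilobase, from 12.4 to 16.4), Postn (7.39, from 5.38 to 9.37), Fn1 (6.63, from 5.17 to 7.40) and Eln (5.45, from 4.92 to 6.49), of which the last 3 overlapped. In late cKO hearts Postn (31.4 ± 11.2) and Eln (31.3 ± 4.29) came first and did not differ beyond their spread, followed by Loxl1 (21.5 ± 4.37) and Lox (16.3 ± 4.36), with Fn1 at 3.29 ± 1.41 (SD, n = 3 each). Tnc had the lowest mean in both late groups, at 0.165 ± 0.0694 in cKO and 0.190 ± 0.0446 in control hearts. In late controls Spp1, at 0.204 ± 0.0836, overlapped it, so the last place there is not settled.

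Postn encodes periostin, a matricellular protein of cardiac fibroblasts that binds integrins and assists collagen fibril assembly, and lies on the plus strand of chromosome 3 at 54361109 to 54391037. Late cKO hearts had 207, 385 and 228 CPM and controls 46.8, 81.6 and 64.5. Replicate 2 was the highest, and even the lowest knockout was well above the highest control. Postn rose 4.25-fold (log2 fold change 2.09, SE 0.27, adjusted p = 0.000155, edgeR). Early knockouts had 45.2, 81.9, 83.9 and 55.5 CPM and controls 82.3, 59.8, 45.5 and 99.1, which overlapped throughout (log2 fold change -0.10, adjusted p = 0.923). The late change exceeded the early one by 2.21 (adjusted p = 2e-04, edgeR).

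Tnc encodes tenascin C, which like periostin is known to appear in remodelling tissue, and lies on the minus strand of chromosome 4 at 63959785 to 64047015. It stayed low. Late cKO hearts had 1.14, 1.88 and 0.822 CPM and controls 1.07, 1.70 and 1.65, from 24 to 66 counts a heart. The knockout hearts held both the highest and the lowest value, and the log2 fold change was -0.19 (SE 0.34, adjusted p = 0.634, edgeR). Early values were 2.03 to 2.72 CPM in knockouts and 1.67 to 4.30 in controls, with a change of -0.18 (adjusted p = 0.884). Per kilobase of exon, Postn stood at 34.9 to 42.9 times Tnc in late controls and at 161.5 to 248 times in late cKO hearts.

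Spp1 encodes osteopontin, a phosphoprotein that binds integrins and Cd44 and is a known product of activated macrophages, and lies on the plus strand of chromosome 5 at 104435118 to 104441050. Early knockouts had 3, 14, 14 and 185 counts, or 0.190, 0.809, 0.697 and 10.9 CPM. Early controls had 4, 16, 3 and 4 counts, or 0.239, 1.02, 0.192 and 0.237 CPM. A single heart, cKO replicate 4, was high, and the other knockouts had 0.190 to 0.809 CPM, against 0.192 to 1.02 in the controls. The log2 fold change was 2.89 (SE 1.12, adjusted p = 0.403, edgeR) and was 0.47 without that heart (adjusted p = 0.814). It is the heart whose labels conflict. In it Gpnmb, a glycoprotein of phagocytic cells, was also high, at 24.8 CPM against 1.14 to 4.01 in the other early hearts. Lgals3, examined beside it, did not stand out there, at 7.85 CPM. Early knockouts had 5.64 to 17.6 CPM of Lgals3 and early controls 2.25 to 3.01 (adjusted p = 0.0121, edgeR). The summed macrophage markers of this heart were 317 CPM over 10 genes, where the other early hearts had 318 to 445. What lies behind its high Spp1 was not tested. Late hearts had 0.963, 0.455 and 0.445 CPM in knockouts and 0.488, 0.220 and 0.300 in controls, which overlapped (log2 fold change 0.89, SE 0.45, adjusted p = 0.108). Of the exons of Spp1, 18.8% overlap a predicted gene on the same strand, so its counts are uncertain to that extent.

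**Figure D3:**
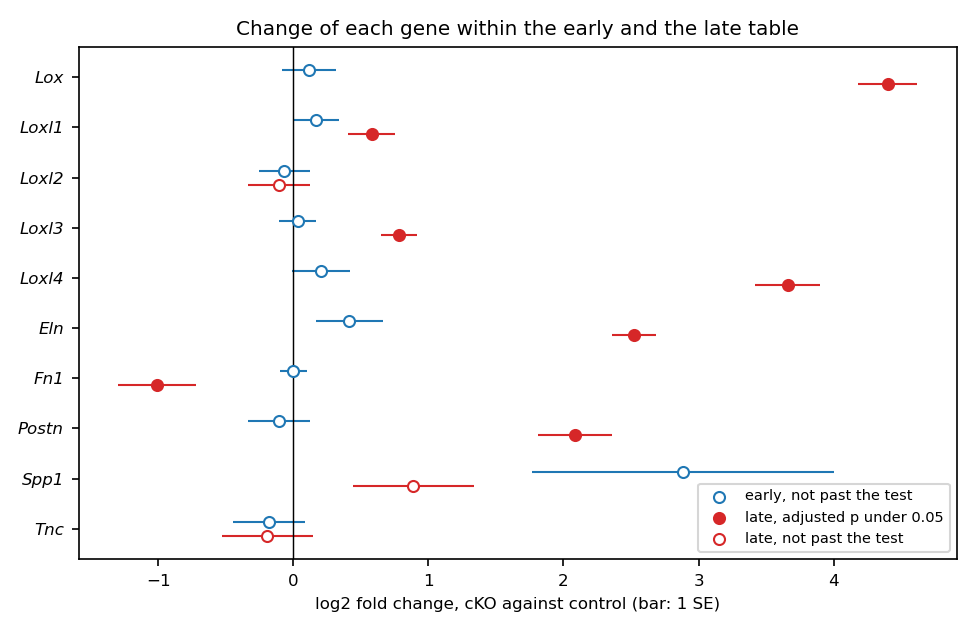
Log2 fold change of cKO against control hearts (horizontal axis) for each gene, early in blue and late in red, with bars of 1 SE and filled points where the adjusted p was under 0.05. Every early point is open, and the late points run from -1.01 for Fn1 to 4.40 for Lox.

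The bases just before the transcription start are shown for Loxl4 and Postn, which rose, and for Tnc, a gene of the same class as Postn that did not pass the test, because their start sites in RefSeq (GRCm38.p6) could be set beside the change in RNA. RefSeq entries were matched for these 3 and Spp1. Each run is 250 bases long, on the gene's strand, 5′ to 3′, ends at the base before the start, and has the TATA box letters TATAAA in capitals where they occur. They cover chr19:42612807-42613056 (minus strand), chr3:54360857-54361106 (plus strand) and chr4:64047016-64047265 (minus strand).
Loxl4: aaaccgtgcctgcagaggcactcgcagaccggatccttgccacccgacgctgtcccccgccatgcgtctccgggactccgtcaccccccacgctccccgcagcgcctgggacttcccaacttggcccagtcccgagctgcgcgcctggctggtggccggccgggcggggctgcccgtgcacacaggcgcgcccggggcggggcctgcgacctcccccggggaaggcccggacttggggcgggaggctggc
Postn: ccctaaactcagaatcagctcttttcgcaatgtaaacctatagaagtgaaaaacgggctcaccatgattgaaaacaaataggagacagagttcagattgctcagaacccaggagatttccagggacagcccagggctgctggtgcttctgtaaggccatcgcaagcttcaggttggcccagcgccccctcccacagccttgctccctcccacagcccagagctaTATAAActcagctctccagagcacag
Tnc: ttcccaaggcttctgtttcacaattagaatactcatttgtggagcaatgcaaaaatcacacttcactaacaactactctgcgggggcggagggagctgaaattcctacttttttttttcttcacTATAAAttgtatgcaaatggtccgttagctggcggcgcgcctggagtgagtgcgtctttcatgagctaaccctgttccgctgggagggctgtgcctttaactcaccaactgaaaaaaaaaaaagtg
In Postn the first T of the capitals lies 26 bases before the start, and in Tnc 126 bases before the start of this entry. Postn and Tnc each have another RefSeq start, whose window is not printed. That of Postn lies 1842 bases from the GENCODE start and has no TATAAA. Before that of Tnc (chr4:64046937-64047186), TATAAA begins 205 bases ahead, and the similar letters ctatataagcc lie nearer the start. The distance of such letters in Tnc thus depends on the start chosen. Loxl4 has no match. Besides TATAAA, the letters TGANTCA (known from AP-1), CATTCC (known from TEAD factors) and TGATGNAA (known from elements of ATF4 and C/EBP factors) were searched on both strands. None was found in the 3 printed windows. Of 32851 RefSeq windows of this length, 12.4% hold TATAAA, 6.7% TGANTCA, 12.6% CATTCC and 3.5% TGATGNAA. These are matches of letters only.

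Partners of the 10 genes were examined in 4 lists of 59 genes, of which 58 were tested in each table. Early, none passed, and the smallest adjusted p was 0.0579, for the elastic fibre glycoprotein Emilin2 (log2 fold change -0.33). Late, 25 rose and 24 fell, a larger share in each direction than the 31.8% and 33.2% of all tested genes. The lists were chosen with earlier results known, so nothing is read from that difference.

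Of the 16 elastic fibre partners, 9 rose and 6 fell, against 31.8% and 33.2% of all tested genes. Their median log2 fold change was 0.55. The microfibril gene Mfap5 rose by 1.03 (adjusted p = 0.000372, edgeR), and Ltbp1 and Fbln1, a latent TGF-beta binding protein and a fibulin, changed by -2.06 and -1.92. Efemp1, a fibulin, and Emilin1 changed by -2.70 and -1.58 on the log2 scale, while Eln rose. The fibrillin Fbn2, early at 0.55 and not passing (adjusted p = 0.484), rose late by 2.07 (adjusted p = 0.000251, edgeR).

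Among 15 tested genes for enzymes, chaperones and cofactors that modify collagen, 3 rose (Tgm2, Ppib and Adamts2) and 10 fell, with a median of -0.41, where 31.8% of all tested genes rose and 33.2% fell. The prolyl hydroxylase subunit P4ha1 changed by -1.45, the lysyl hydroxylase Plod2, which prepares the lysines that lysyl oxidases act on, by -1.12. The collagen chaperone Serpinh1 had 114 CPM on average against 228.5 in controls (adjusted p = 0.000334, edgeR). Tgm2, a transglutaminase that crosslinks matrix proteins by another chemistry, rose by 3.07 (adjusted p = 3.79e-07, edgeR), at 2338 ± 161 CPM in cKO and 277.5 ± 8.93 in control hearts (SD, n = 3 each).

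Among 18 other matricellular genes, 8 rose and 6 fell, with a median of 0.25. For these and the receptors below, the late shares over all tested genes were 31.8% higher and 33.2% lower. Ctgf rose by 3.48 and Wisp1 by 4.28, both of the family of cysteine-rich matricellular regulators, and Sparcl1 and Smoc2 of the SPARC family changed by -1.54 and -1.68. The thrombospondin Thbs1 had the smallest early p of this list (1.14, adjusted p = 0.116, edgeR), followed by Cyr61 (0.35, adjusted p = 0.13). Of 9 receptors for fibronectin, osteopontin, periostin and tenascin, 5 rose and 2 fell, with a median of 0.98. Cd44, a receptor of osteopontin and hyaluronan, rose by 1.86, the fibronectin receptor subunits Itga5 and Itgb1 by 1.31 and 1.08, and Itgb5 by 0.98, while Fn1 fell. Itga8, which pairs with Itgb1, changed by -2.55 and Itga4 by -1.17.

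**Figure D4:**
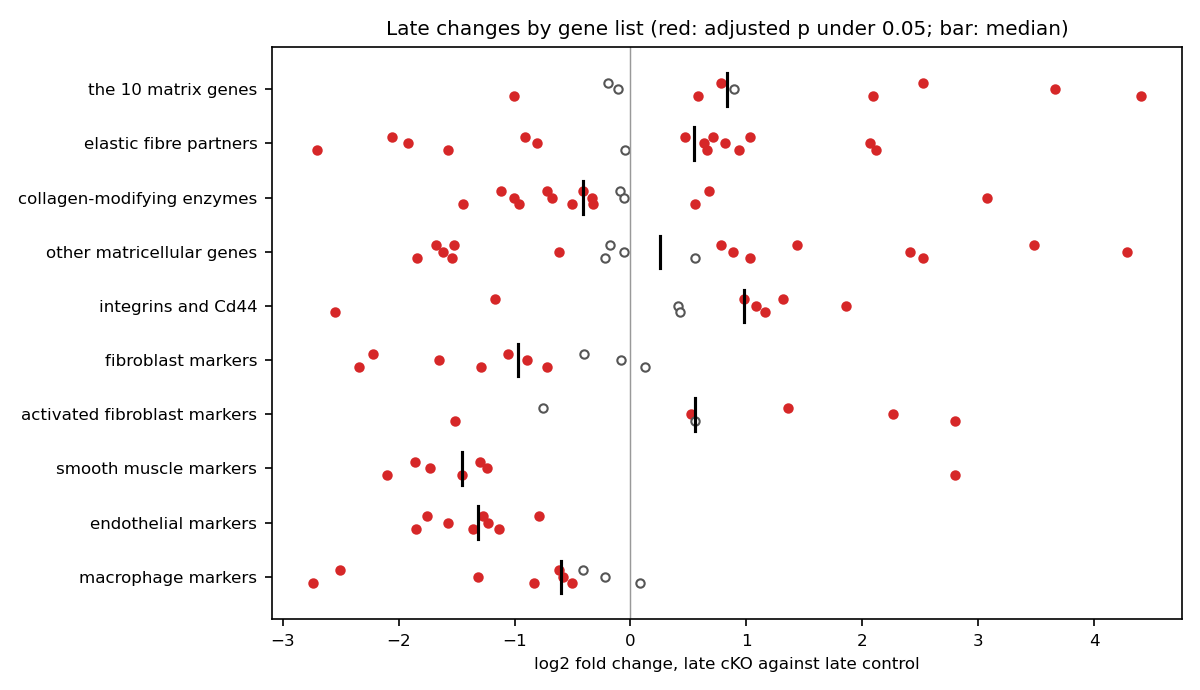
Late log2 fold change (horizontal axis) of the 10 genes, of the genes in the 4 partner lists and of the marker lists of 5 cell types, 1 point per gene, red where the adjusted p was under 0.05 and open where not, with a bar at the list median. The medians are 0.84 for the 10 genes and -0.41 for the collagen-modifying genes, and all 8 endothelial markers lie below 0.

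Markers of the cells that can make these genes also changed late, where 31.8% of all tested genes rose and 33.2% fell. In bulk RNA, fewer cells of a type and less RNA per cell cannot be told apart. Of 10 fibroblast markers none rose and 7 fell, and their summed level was 1688 to 1789 CPM in late cKO hearts and 3186 to 3948 in controls. The collagen genes among them, Col1a1 (-0.08) and Col1a2 (0.13), did not pass the test, while Lox and Loxl4 rose in the same hearts. Of 7 tested markers of activated fibroblasts, 4 rose (Acta2, Cilp, Ddah1 and Col8a1) and Fap fell, with sums of 1202 to 2061 against 265 to 333 CPM, of which Acta2 alone made 992 to 1880 and 173 to 227. Cthrc1, a defining marker of that state, had at most 1.23 CPM in any heart and was not tested.

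Of 7 smooth muscle markers, 6 fell and only the shared marker Acta2 rose. Myh11, the defining myosin of smooth muscle, had 20.8 to 35.6 CPM in late cKO hearts against 85.1 to 110 in controls, while Eln, a known product of these cells, was higher. All 8 endothelial markers fell, with sums of 419 to 464 against 978 to 1187 CPM, and 7 of 10 macrophage markers fell, with sums of 219 to 267 against 419 to 427 CPM. Of the 10 genes, Fn1 fell as these markers did and 6 rose, where 33.2% of all tested genes fell and 31.8% rose. The part of any of these cell types in the changes of the 10 genes was not tested. Early, no tested gene of any marker list passed. Of the 6 adipocyte markers only 1 was tested early, Cfd (log2 fold change 3.28, adjusted p = 0.0502, edgeR). Adipocyte marker sums were 1.77 to 15.3 CPM in early cKO hearts and 0.355 to 2.03 in early controls.

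Hearts of a group differed in several of the 10 genes at once. Early control replicate 3 had the lowest value of its group in 9 of the 10 genes, and early control replicate 4 the highest in 7. Late control replicate 1 was lowest in 8, and late control replicate 2 highest in 7. Among late cKO hearts, replicate 2 was highest in 6 genes, including Lox, Loxl4 and Postn, and replicate 3 was lowest in 6, including Lox and Fn1, yet highest for Eln and Loxl1.

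For each gene, the 2 other genes most alike in pattern were found by Pearson r over the 14 hearts, on log2 CPM relative to the controls of the same table. These r values describe likeness only, since the points share libraries and, for most genes, the step between the late groups. Lox was most like Dpysl3 (r = 0.995) and Prkab2 (0.993), and Loxl4 most like Tgfb1i1 and Shc1 (both 0.996). Postn was most like Fbln2 (0.983) and Mfap5 (0.979), both elastic fibre partners, and Eln most like Rcc2 (0.979) and Cc2d1b (0.978). Fn1 was most like Prex1 (0.980) and Zfp36l1 (0.979), and Loxl3 most like Tmem43 (0.956) and the matrix gene Cilp (0.955). Loxl2, which did not pass the late test, was most like the collagen genes Col5a1 (0.894) and Col1a1 (0.878). Likeness was lower for Loxl1 (Kctd15 and Faim, both 0.899), Tnc (Mfsd7b 0.861, Slc12a5 0.845) and Spp1 (Gpnmb 0.770, Tsc22d3 0.737).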

How the data were processed

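Per the labels' protocols, oligo-dT selected mRNA was made into TruSeq RNA V2 libraries, a kit that leaves strand unmarked, and read single-end. Per the submitters' processing notes, Trimmomatic 0.36, STAR 2.6.0c and GRCm38 were used. Not given in the sources used here are the counter, its annotation and its strand mode. The authors deposited whole-number read counts per symbol, 1 table per time.

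Here, each table was tested alone with edgeR 4.0.16 in R 4.3.3 (quasi-likelihood F test, TMM, filterByExpr with minimum count 10 and total 15, Benjamini-Hochberg over all tested genes, called under 0.05). Late and early changes were compared by a genotype-by-time contrast over all 14 libraries. Adjusted p-values are from edgeR unless another tool is named. The standard error was computed as log2 fold change over √F. CPM were computed from the counts with TMM-scaled library totals. CPM per kilobase used the joined length of all annotated exons of a gene in GENCODE M21 (GRCm38). That annotation also gave positions and overlaps. Reads shared with an overlapping gene cannot be told apart. The fits were tested on simulated counts.

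Samples were grouped by title. Early cKO replicate 4 was kept as a knockout. Alternatives were edgeR's RLE scaling, DESeq2 1.42.0, no filter on low counts, each replicate left out, a replicate block, that heart as a control and a fit of all 14 libraries. Whether each library came from its own animal is not in the labels. The p-values then measure only the spread among these libraries, which may be technical. Within groups the chi-square per gene between libraries was 3.90 or more, so none was counted as a copy. Reads are not separate molecules.

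The 10 genes, the partner lists and the markers were chosen with earlier results of these data known. All 10 were named, with up to 4 genes of each partner list with the smallest late p and up to 2 with the smallest early p, and the 2 most alike genes (average log2 CPM of at least 1 in both tables, prior count 2, leaving out predicted and Y-linked genes and Xist). Ppib, Adamts2, Itga4, Lgals3 and single markers were named after their values were seen.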

Additional observations from a re-analysis of the deposited data

Results flagged for a closer look

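Of 20 groups of early values examined for a sample far from the others (4 hearts each, Dixon's criterion), 3 stood out, where chance flags about 1 in 20. Spp1 had 10.9 CPM in early cKO replicate 4 and 1.02 CPM in early control replicate 2, each far above the rest of its group. Fn1 had 95.9 CPM in early cKO replicate 3, where the other 3 knockouts lay between 87.4 and 88.6 CPM.

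The late change minus the early change passed the edgeR test of the genotype-by-time contrast for 6 genes. It was 4.30 on the log2 scale for Lox, 3.47 for Loxl4, 2.21 for Postn, 2.13 for Eln, 0.77 for Loxl3 and -0.99 for Fn1. Time and table cannot be told apart in this contrast.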

How the results depend on the processing

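Late, 6 genes called higher and 1 lower were found with RLE scaling, DESeq2, no filter, the replicate block and the fit of all 14 hearts, and 5 to 6 higher and 1 to 2 lower with 1 heart left out. Loxl1 was lost without late control replicate 1 (0.50, adjusted p = 0.0557, edgeR), and Loxl2 passed without late cKO replicate 2 (-0.44, adjusted p = 0.0467). Of 110 late values recomputed for single genes, 105 kept direction and side of the threshold. With 1 heart left out, late Loxl2 ran from -0.4358 to 0.0583 and Tnc from -0.5664 to 0.0468.

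Early, 0 genes of the 10 passed in any alternative but no filter on low counts, where Spp1 did (1 gene, adjusted p = 0.000428, edgeR). Without filter and without early cKO replicate 4, an alternative added after the data were seen, Spp1 changed by 0.47 (adjusted p = 0.731). Early calls over all genes, 70 higher and 13 lower, were 127 and 50 with DESeq2 and 260 and 128 with no filter. Lower calls were 65 with replicate 4 as a control and 7 in the fit of all 14 hearts. With 1 heart left out, calls ran from 39 to 115 higher and from 4 to 66 lower, with the most without early cKO replicate 4. Higher or lower calls were under those of all 8 hearts by over 1.5 times without early cKO replicate 2 or early control replicates 2, 3 or 4. Early signs near 0 turned. Fn1 was -0.0012 with RLE, -0.0014 with DESeq2, -9e-04 with no filter and -0.0041 in the fit of all hearts. With replicate 4 as a control, Loxl2 was 0.158 and Postn 0.0413. Spp1, not near 0 at 2.89 with that heart as a knockout, then turned to -2.1262 (adjusted p = 0.506, edgeR). With 1 heart left out, Fn1 ran from -0.1043 to 0.0879, Lox from -0.0504 to 0.2287, Loxl2 from -0.1837 to 0.072, Loxl3 from -0.0678 to 0.1602, Postn from -0.2691 to 0.0925 and Tnc from -0.3366 to 0.1869.

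For the difference between times, the calls of 5 higher and 1 lower held in 14 fits with 1 heart left out, and no filter added Loxl1 (6 higher, adjusted p = 0.0363, edgeR). Loxl2 was 0.0109 with RLE, 0.0204 with DESeq2 and 0.0198 with no filter. Tnc was -0.1035 with the replicate block and -0.1008 with replicate 4 as a control, and Spp1 then 3.0332. With 1 heart left out, Loxl2 ran from -0.3269 to 0.1385, Spp1 from -2.8829 to 0.4432 and Tnc from -0.3598 to 0.229. The cause of these shifts was not tested.

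Replicate numbers are shared between groups. Deviations of same-numbered hearts correlated between -0.089 and -0.036 early and between -0.412 and -0.058 late. Deviations from the mean of so few hearts cannot exclude pairing by number, so no conclusion is drawn from them. The replicate block changed no call of the 10 genes (Lox late 4.36, adjusted p = 2.5e-05, edgeR). Low counts limit the precision for Spp1 (3 to 185 a heart), Tnc (24 to 72) and Loxl4 in early hearts (16 to 35).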
